A study of Mus musculus with 8 samples.

Results

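The genes described here are 10 secreted regulators of Wnt signalling, chosen by symbol from the 53801 genes of the deposited table: the R-spondins Rspo1, Rspo2 and Rspo3, the secreted Frizzled-related proteins Sfrp1, Sfrp2, Sfrp4 and Frzb, the Dickkopfs Dkk2 and Dkk3, and Wif1. RNA came from small-intestinal stromal cells of LTβRYFP mice, negative for CD45 and CD31, which a cell sorter had divided into YFP+ and YFP- fractions, with 4 libraries of each. Both fractions come from mice that carry the YFP allele. The sources used here do not give how that allele was built, which cells it marks, or the age and treatment of the mice. The sample titles carry the opposite YFP sign to the descriptions and genotypes in all 8 samples, so YFP+ and YFP- mean the libraries named so by description and genotype, and every direction would turn over under the titles.

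Wnt proteins bind Frizzled and LRP receptors on a receiving cell and stabilise beta-catenin, which switches on target genes together with TCF/LEF factors. R-spondins bind LGR receptors and the ligases Rnf43 and Znrf3, which keeps Frizzled receptors on the surface and strengthens the response to Wnt. Secreted Frizzled-related proteins and Wif1 bind Wnt proteins outside the cell, and Dickkopfs of the Dkk2 type bind LRP receptors. In the gut, fibroblasts below the crypts supply R-spondins to the epithelial stem cells, and Wnt activity is highest at the crypt base.

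Library totals ran from 23272858 to 29829232 counts. CPM express a gene's counts relative to the library total after TMM scaling. Pdgfra, the fibroblast receptor gene, averaged 1055 ± 51.3 CPM over YFP- libraries against 1036 ± 128 over YFP+ libraries (SD, n = 4 each). Ptprc, which encodes CD45, stood at 2.38 ± 2.21 and 2.29 ± 2.65 CPM, and Pecam1, which encodes CD31, at 7.46 ± 2.94 and 4.66 ± 1.83 CPM. Some blood cell RNA was present all the same. A list of 10 blood cell genes summed to 90.6 to 313 CPM in YFP- and 49.8 to 349 CPM in YFP+. The most abundant of them was Igha, at 151 ± 76.4 and 125 ± 95.3 CPM. Mitochondrial genes held 5.20% to 7.38% of counts in YFP- and 4.13% to 4.86% in YFP+, without overlap, and the same 5 genes described below passed with those genes and ribosomal RNA removed. Over all genes tested, 597 were higher and 1283 lower in YFP+ by edgeR's quasi-likelihood test with equal replicate numbers as pairs (threshold: adjusted p of 0.05).

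Promoters are shown for Dkk2, Frzb and Rspo1, because the first pair are antagonists that moved in opposite directions and the R-spondin holds a match to the NF-kB family's binding consensus. Each is the RefSeq window on GRCm38.p6 from 250 bases before to 50 bases after the annotated start, written 5′ to 3′ on the gene's strand, with motif matches in capitals. Of the 10 genes, 5 matched an entry in the promoter table.
Dkk2, chr3:132085042-132085341, plus strand: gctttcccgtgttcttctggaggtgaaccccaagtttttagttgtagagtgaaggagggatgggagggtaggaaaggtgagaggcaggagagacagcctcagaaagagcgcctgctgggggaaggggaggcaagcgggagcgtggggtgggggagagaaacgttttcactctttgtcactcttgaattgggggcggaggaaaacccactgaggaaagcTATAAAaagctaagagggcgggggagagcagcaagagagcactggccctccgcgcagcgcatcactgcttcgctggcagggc
Frzb, chr2:80447347-80447646, minus strand: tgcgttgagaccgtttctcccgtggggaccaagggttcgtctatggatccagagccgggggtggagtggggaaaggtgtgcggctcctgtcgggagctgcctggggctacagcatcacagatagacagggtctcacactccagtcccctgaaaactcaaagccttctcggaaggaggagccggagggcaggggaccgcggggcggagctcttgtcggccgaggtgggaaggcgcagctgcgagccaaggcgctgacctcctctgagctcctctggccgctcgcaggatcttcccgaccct
Rspo1, chr4:124986180-124986479, plus strand: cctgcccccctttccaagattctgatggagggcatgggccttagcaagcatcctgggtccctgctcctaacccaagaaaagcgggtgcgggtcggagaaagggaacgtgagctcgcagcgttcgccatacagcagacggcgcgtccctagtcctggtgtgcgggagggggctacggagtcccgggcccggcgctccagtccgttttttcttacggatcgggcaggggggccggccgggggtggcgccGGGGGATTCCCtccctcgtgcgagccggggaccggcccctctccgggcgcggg
Both strands were searched for TATAAA, for the TCF/LEF core CTTTGAT and for the kappa-B consensus. The consensus was taken up after looser patterns had been tried on these windows, so its match is a description only. Dkk2 has TATAAA starting 32 bases before the start site, and 13.6% of 32851 promoters hold that motif on either strand. Rspo1 has overlapping kappa-B matches, of which the first begins 3 bases before the start site, and 8.46% of promoters hold one. Frzb has none of these motifs, and no TCF/LEF core, which 3.73% of promoters hold, was found in any of the 5 promoters. Among the windows not printed, Sfrp2 holds a kappa-B match 22 bases after its start and Wif1 a TATAAA on the other strand 232 bases before it. GC content was 57.7% for Dkk2, 64.7% for Frzb and 69.0% for Rspo1, against a median of 52.7% over the table.

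Among the 10 genes, Dkk2, Rspo3 and Rspo2 were lower in YFP+, and Frzb and Dkk3 were higher. That is 5 of the 9 genes that could be tested, where 11.5% of all 16354 genes passed (3.65% higher and 7.85% lower). Each of the 9 passed the expression filter in both fractions. Of the 6 with a mean of at least 10 CPM, a level chosen after the values were seen, 5 passed, where 16.2% of the 8996 genes at that level did (5.94% higher and 10.2% lower). With replicate numbers left out of the test 4 of the 9 passed, where 4.26% of all genes did (0.917% higher and 3.34% lower), and Rspo2 was the gene lost. Sfrp1 did not pass, nor did the scarce Rspo1, Sfrp4 and Wif1, and Sfrp2 was too low to test. The median log2 fold change of the 9 was -0.53, against 0.01 over all genes tested. The genes were picked with earlier results of these data known.

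**Figure D1:**
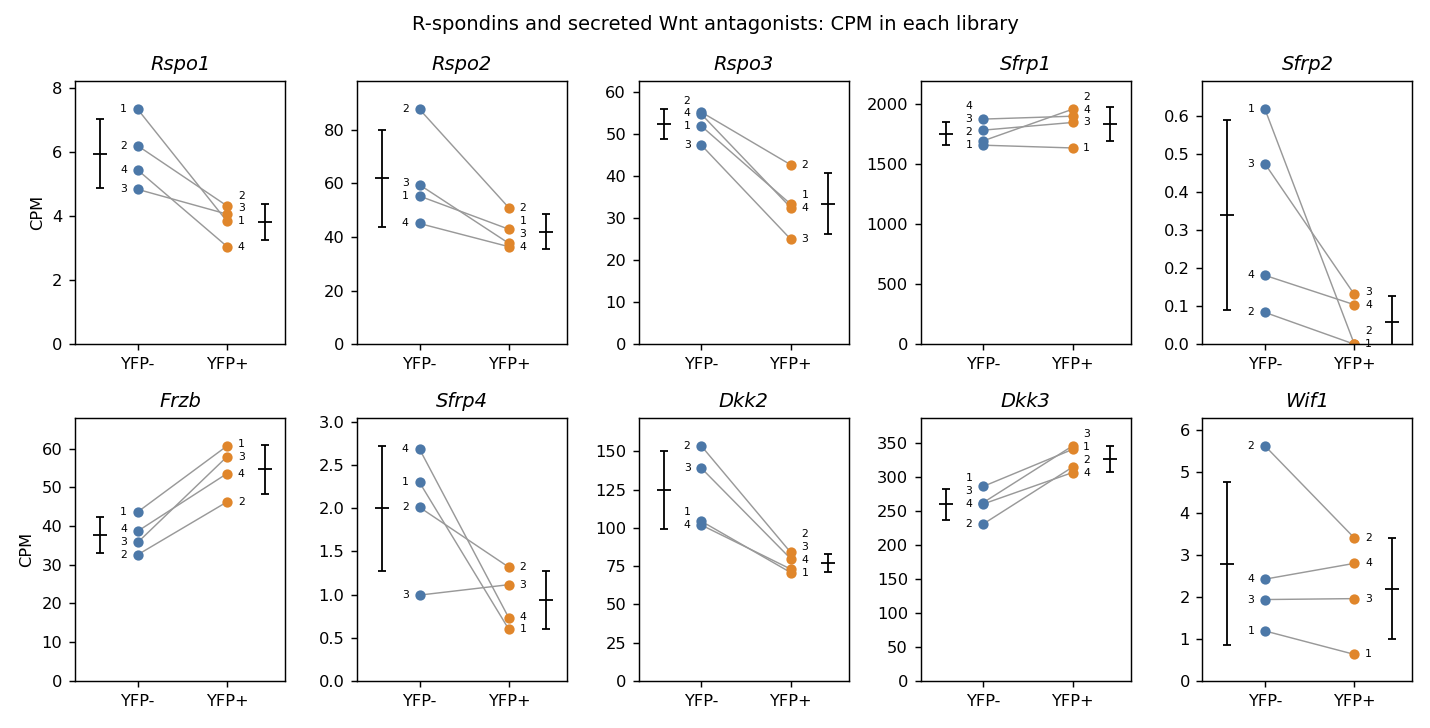
CPM of each of the 10 genes (vertical axes, linear from 0) in the 4 YFP- and 4 YFP+ libraries, with grey lines joining libraries of equal replicate number, small digits giving that number, and bars showing mean ± SD. Rspo1, which did not pass the test, and Rspo3, Dkk2, Frzb and Dkk3 show no overlap between the groups, while Sfrp1 and Wif1 overlap widely. The share of all genes without overlap was not counted.

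Levels can be compared between genes only per length, here as RPKM, which are CPM divided by the kilobases of annotated exon. Sfrp1 was by far the most abundant of the set, at 400.2 ± 22.2 RPKM in YFP- and 419 ± 32.2 RPKM in YFP+ (n = 4 each, ± SD), and it ranked 32 among 13681 tested protein-coding genes. Dkk3 followed at 77.2 ± 6.74 and 97.1 ± 5.72 RPKM, and Dkk2 at 33.7 ± 6.92 and 20.8 ± 1.64 RPKM. These 3 kept the same order in every library.

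Below them the order differed between the fractions. In YFP-, Rspo3 stood at 16.9 ± 1.16 RPKM, above Rspo2 at 12.1 ± 3.57 and Frzb at 11.6 ± 1.45, and these last ones did not differ beyond their spread. In YFP+, Frzb stood at 16.9 ± 1.95 RPKM, above Rspo3 at 10.8 ± 2.34 and Rspo2 at 8.21 ± 1.29 (SD, n = 4 each), and the ranges of the R-spondins overlapped. Rspo3 was above Frzb in all 4 YFP- libraries and below it in all 4 YFP+ libraries.

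The remaining genes were scarce in both fractions. Rspo1 stood at 3.07 ± 0.556 RPKM in YFP- and 1.97 ± 0.283 in YFP+, Wif1 at 1.15 ± 0.802 and 0.908 ± 0.496, and Sfrp4 at 0.478 ± 0.173 and 0.225 ± 0.0800. Wif1 and Sfrp4 overlapped within each fraction. Sfrp2, at 0.158 ± 0.116 and 0.0273 ± 0.0319 RPKM, was the lowest in mean.

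Rspo3, the R-spondin with the most RNA per length in YFP-, fell in YFP+. Its levels in YFP- replicates 1 to 4 were 51.8, 55.1, 47.3 and 54.6 CPM, and those in YFP+ replicates 1 to 4 were 33.3, 42.6, 24.9 and 32.4 CPM. The lowest YFP- library was above the highest YFP+ library, and YFP+ was lower in 4 of 4 pairs. On the log2 scale YFP+ stood at -0.67 relative to YFP- (SE 0.09, 95% interval -0.86 to -0.48), with an edgeR adjusted p of 7.62e-06. On GRCm38, Rspo3 (ENSMUSG00000019880) is a minus-strand gene on chromosome 10 between 29452416 and 29535867. Its exons share 404 bases with Gm48159 on the opposite strand, which reached at most 0.822 CPM in any library.

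Rspo2 was lower in YFP+ as well, with more spread. Its levels were 55.3, 87.7, 59.5 and 45.1 CPM for YFP- replicates 1 to 4, against 42.9, 50.9, 37.6 and 36.4 CPM for YFP+ replicates 1 to 4. The groups overlapped, since YFP- replicate 4 lay below YFP+ replicate 2, but within each of the 4 pairs YFP+ was the lower one. The log2 fold change was -0.53 (SE 0.08, 95% interval -0.71 to -0.36, edgeR adjusted p = 6.71e-05). The call rests on the pairing: the edgeR adjusted p was 0.178 when replicate numbers were left out. Rspo2 (ENSMUSG00000051920) spans chromosome 15 from 43020794 to 43170826, minus strand.

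Rspo1, which mesothelium is known to make, had levels of 7.34, 6.20, 4.84 and 5.44 CPM for YFP- replicates 1 to 4, against 3.84, 4.32, 4.06 and 3.05 CPM for YFP+ replicates 1 to 4. No YFP+ library reached the lowest YFP- library, but the counts were small, from 88 to 166 per library. The log2 fold change was -0.64 (SE 0.23, 95% interval -1.11 to -0.16), and it did not pass (edgeR adjusted p = 0.0803). The gene (ENSMUSG00000028871) lies on chromosome 4 from 124986430 to 125009099 on the plus strand.

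Proportions within the R-spondins were much alike in the fractions; these sums, shares and ratios were chosen after the values were seen and are given without a test. Summed over them, RPKM were 32.1 ± 4.19 in YFP- and 21.0 ± 3.66 in YFP+ (n = 4 each, ± SD), with YFP- from 29.3 to 38.2 and YFP+ from 17.5 to 26.0. Rspo3 held 53.1% ± 5.62 of that sum in YFP- and 51.2% ± 3.77 in YFP+, and Rspo2 held 37.3% ± 6.41 and 39.3% ± 2.11. The ratio of Rspo3 to Rspo2 counts was 0.893 ± 0.248 in YFP- and 0.791 ± 0.0983 in YFP+, with overlapping ranges. Rspo4, the remaining R-spondin, had 0 counts in 7 libraries and 6 counts in YFP+ replicate 2.

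Frzb, also called Sfrp3, was the antagonist with the largest rise. Its levels were 43.6, 32.6, 35.8 and 38.7 CPM for YFP- replicates 1 to 4, against 60.7, 46.2, 57.9 and 53.5 CPM for YFP+ replicates 1 to 4. The groups did not overlap, and the 4 pair differences lay between 0.47 and 0.70 on the log2 scale. This is a log2 fold change of 0.54 (SE 0.08, 95% interval 0.37 to 0.70, edgeR adjusted p = 3.05e-05). Frzb (ENSMUSG00000027004) lies on chromosome 2 from 80411970 to 80447625, minus strand.

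Sfrp1 did not differ detectably, at a depth that left a narrow interval. It had 1655, 1691, 1780 and 1872 CPM for YFP- replicates 1 to 4, against 1632, 1954, 1844 and 1896 CPM for YFP+ replicates 1 to 4. The ranges overlapped, and YFP+ was higher in 3 of 4 pairs. The log2 fold change was 0.06 (SE 0.05), with a 95% interval of -0.03 to 0.16 and an edgeR adjusted p of 0.455. Sfrp1 made up 76.3% ± 1.50 of the summed antagonist RPKM in YFP- and 75.4% ± 2.12 in YFP+ (n = 4 each, ± SD), so that sum mostly reads this gene. Without Sfrp1 the antagonists summed to 124 ± 4.53 RPKM in YFP- and 136 ± 6.68 RPKM in YFP+, from 118.5 to 128.0 and from 128.7 to 143.3. That remainder mostly reads Dkk3, at 77.2 ± 6.74 RPKM in YFP- and 97.1 ± 5.72 RPKM in YFP+. Dkk2, the next largest part, went the other way, from 33.7 ± 6.92 to 20.8 ± 1.64 RPKM. Sfrp1 (ENSMUSG00000031548) lies on chromosome 8 from 23411502 to 23449632, plus strand.

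The other Frizzled-related genes were near the detection limit. Sfrp4 had 2.30, 2.01, 0.993 and 2.68 CPM for YFP- replicates 1 to 4, against 0.596, 1.32, 1.11 and 0.728 CPM for YFP+ replicates 1 to 4. Its groups overlapped, YFP+ was lower in 3 of 4 pairs, and the log2 fold change of -1.07 (SE 0.49, 95% interval -2.08 to -0.06) did not pass (edgeR adjusted p = 0.190). Sfrp2 had 14, 2, 11 and 5 counts in YFP- and 0, 0, 4 and 3 in YFP+, which overlap and which the expression filter removed. With no filter its edgeR adjusted p was 0.527. Sfrp2 also shares 347 exonic bases with Gm26771 on the opposite strand, which averaged 1.04 CPM in YFP- and 0.948 CPM in YFP+, above Sfrp2 itself. Sfrp4 (ENSMUSG00000021319) lies on chromosome 13 from 19623104 to 19632994 and Sfrp2 (ENSMUSG00000027996) on chromosome 3 from 83766321 to 83774316, both on the plus strand.

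The Dickkopf genes moved in opposite directions. Dkk2, whose protein binds the LRP co-receptors, fell, with 104, 154, 139 and 102 CPM for YFP- replicates 1 to 4, against 70.8, 84.0, 79.9 and 73.1 CPM for YFP+ replicates 1 to 4. The groups did not overlap, and the YFP+ libraries were closer together than the YFP- libraries. The log2 fold change was -0.68 (SE 0.07, 95% interval -0.82 to -0.54, edgeR adjusted p = 8.88e-08). Dkk2 (ENSMUSG00000028031) lies on chromosome 3 from 132085292 to 132180304, plus strand.

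Dkk3, a divergent member of the family whose action on Wnt receptors is less settled, rose. It had 286, 230.4, 262 and 259.8 CPM for YFP- replicates 1 to 4, against 340.0, 314, 345 and 306 CPM for YFP+ replicates 1 to 4. All 4 YFP+ libraries were above all 4 YFP- libraries, and with replicate numbers left out the edgeR adjusted p was 0.0347. Dkk3 had a log2 fold change of 0.33 (SE 0.05, 95% interval 0.22 to 0.44, edgeR adjusted p = 7.92e-05). Dkk3 (ENSMUSG00000030772) lies on chromosome 7 from 112116017 to 112159057, minus strand. Of the other Dickkopfs, Dkk1 had between 0 and 6 counts per library and Dkk4 had 0 in all 8.

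Wif1, which binds Wnt proteins through a domain of its own, followed the replicate number more than the sort. It had 1.19, 5.61, 1.94 and 2.43 CPM for YFP- replicates 1 to 4, against 0.633, 3.41, 1.97 and 2.81 CPM for YFP+ replicates 1 to 4. Replicate 2 was the highest and replicate 1 the lowest in both fractions. The replicate number held 89.1% of the variance of its log2 CPM over the 8 libraries and the fraction held 3.87%. For comparison, the fraction held between 73.2% and 75.9% for Rspo3, Frzb, Dkk2 and Dkk3, and 47.1% for Rspo2. Among genes that did not pass, it held 70.2% for Rspo1, 52.8% for Sfrp4 and 12.5% for Sfrp1. The replicate number has more levels than the fraction, so their shares are not like for like. Wif1 had a log2 fold change of -0.33 (SE 0.34, 95% interval -1.03 to 0.37, edgeR adjusted p = 0.632). Without YFP- replicate 2, and with no pairing, it was 0.25, so in the unpaired fit its direction rests on that library. Wif1 (ENSMUSG00000020218) lies on chromosome 10 from 121033960 to 121100650, plus strand.

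**Figure D2:**
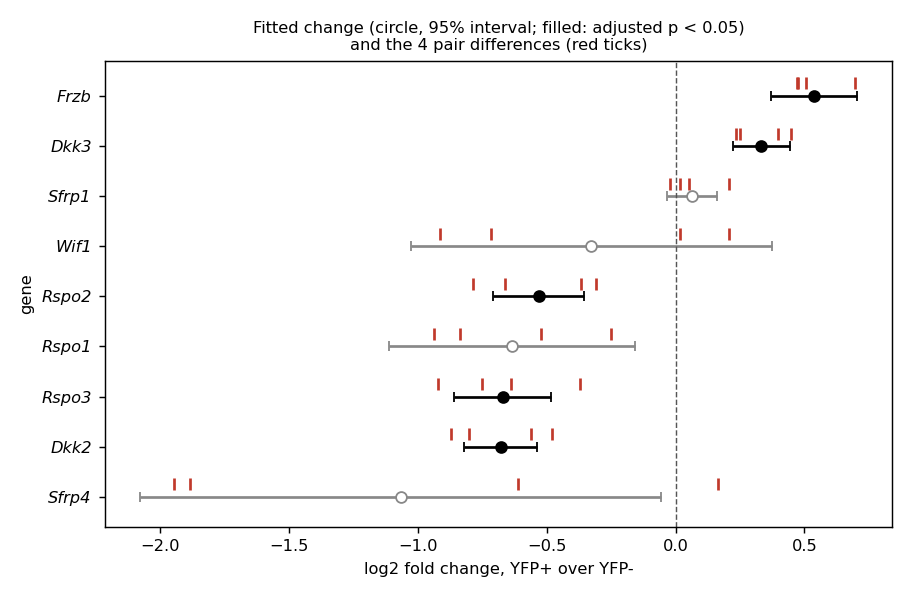
Log2 fold change of YFP+ over YFP- (horizontal axis) for the 9 tested genes (vertical axis): circles are edgeR estimates with 95% intervals, filled where the adjusted p is under 0.05, and red ticks are the 4 differences within pairs. The ticks of Dkk2, Rspo3, Rspo2 and Rspo1 all lie below 0 and those of Frzb and Dkk3 all above it.

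Ratios of counts within a library do not depend on how libraries are scaled, and they too were picked after the values were seen. Those over Frzb and Dkk3 set a gene called lower over one called higher, so they repeat those calls. Rspo3 had 1.40 ± 0.214 counts per Frzb count in YFP- and 0.627 ± 0.210 in YFP+ (n = 4 each, ± SD). YFP- ran from 1.19 to 1.69 and YFP+ from 0.430 to 0.922, without overlap. Rspo2 had 1.70 ± 0.697 counts per Frzb count in YFP- and 0.784 ± 0.212 in YFP+, where the lowest YFP- value was 1.17 and the highest YFP+ value 1.10. Dkk2 had 0.489 ± 0.139 counts per Dkk3 count in YFP- and 0.237 ± 0.0244 in YFP+, from 0.366 to 0.667 and from 0.208 to 0.268. Dkk2 and Rspo3 stayed at a like ratio, 2.40 ± 0.541 Dkk2 counts per Rspo3 count in YFP- and 2.39 ± 0.555 in YFP+.

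**Figure D3:**
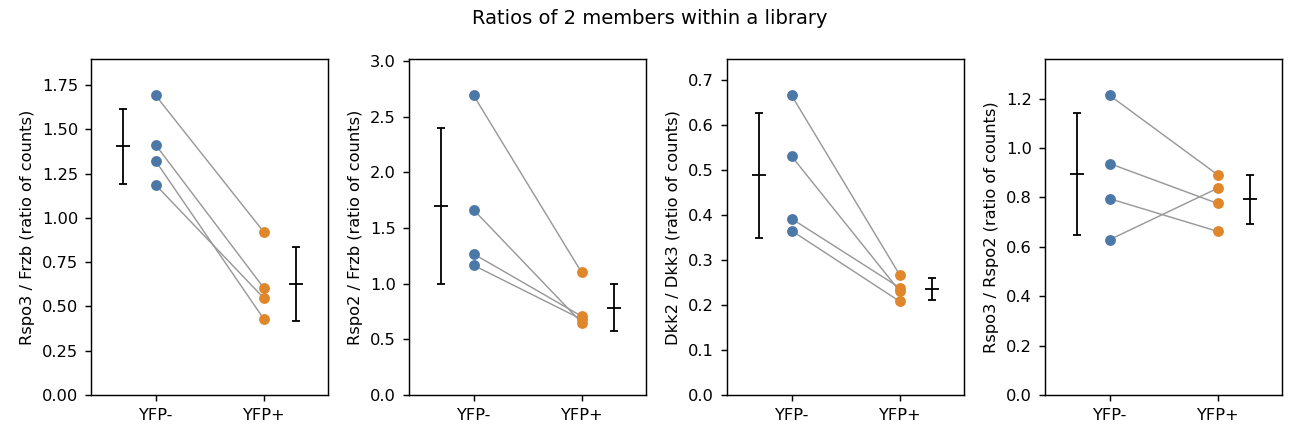
Ratio of the counts of 2 genes in the same library (vertical axes, linear from 0) in YFP- and YFP+, with grey lines joining pairs and bars showing mean ± SD over 4 libraries. The first 3 ratios separate the groups, and Rspo3 over Rspo2 does not. Each of the first 3 sets a gene called lower over one called higher, so the separation is no support beyond those calls.

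The genes whose pattern over the 8 libraries lay closest to each called gene were found among 8617 protein-coding genes averaging 10 CPM or more and detected in every library. Likeness was the mean absolute difference between log2 CPM profiles, each centred on its own mean. For Rspo3, Vwa1 was among the closest (0.0931, where the median candidate was at 0.375). Dkk2 lay closest to Zfpm2 (0.0811) and Olfml2b (0.0888), with a median of 0.370. Frzb lay closest to the integrin subunit gene Itgb3 (0.0629) and to Fblim1 (0.0659), with a median of 0.282. Dkk3 lay closest to Kctd10 (0.0274) and Letm1 (0.0306), with a median of 0.194. Rspo2 lay closest to Clip4 (0.0923) and Elovl6 (0.0951), with a median of 0.344.

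For the gene lists from here on, the shares over all 16354 genes were 3.65% higher and 7.85% lower with the pairing. Without it they were 0.917% higher and 3.34% lower. Of 17 other genes for secreted or Wnt-secretion proteins, 9 could be tested, of which 4 fell and 1 rose. Without the pairing 3 fell. Sfrp5, a further Frizzled-related gene, had 4.16, 5.03, 4.28 and 2.58 CPM for YFP- replicates 1 to 4, against 0, 0, 0.0655 and 0.451 CPM for YFP+ replicates 1 to 4, which is -5.15 on the log2 scale (edgeR adjusted p = 0.00653). It lost its call without the libraries of replicate 3 (edgeR adjusted p = 0.0582). Sostdc1, a secreted antagonist of BMP and Wnt signals, had 5.62 ± 2.35 CPM on average in YFP- against 0.123 ± 0.0855 CPM in YFP+ (SD, n = 4 each; log2 fold change -5.49, edgeR adjusted p = 2.64e-09). Both passed the expression filter only through YFP-, so a low value there would have left them untested. Gpc3, a glypican, fell by 0.43 on the log2 scale, and Igfbp4, which can also hinder Wnt receptors, rose by 0.18. Igfbp4 lost its call without replicate 2, 3 or 4 (edgeR adjusted p = 0.0908, 0.121 and 0.0816) and without the pairing (0.395), and without replicate 3 the list had 2 lower genes.

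Receptors of R-spondins and Dickkopfs, with their ligases, were lower where they passed. Of 11 genes, 9 could be tested, 4 fell and none rose, or 2 fell without the pairing. Over all genes, 7.85% fell with the pairing and 3.34% without it. The R-spondin receptor gene Lgr4 had 39.9 ± 4.19 CPM on average in YFP- against 29.1 ± 3.88 CPM in YFP+ (n = 4 each, ± SD), which is -0.46 on the log2 scale (edgeR adjusted p = 7.93e-04). Sdc4, a syndecan that also binds R-spondins, had a log2 fold change of -0.47 and the ligase gene Znrf3 -0.38. Znrf3 lost its call without replicate 1 (edgeR adjusted p = 0.0691) and without the pairing. The Dickkopf co-receptor gene Kremen1 had -0.08 and did not pass. Lgr5, the stem cell receptor gene, was too low to test, at 0.487 ± 0.176 and 0.237 ± 0.194 CPM.

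Of 14 Frizzled and other Wnt receptor genes 13 could be tested, 5 fell and 1 rose, or 1 fell without the pairing. Among all genes 3.65% rose and 7.85% fell with the pairing, and 0.917% and 3.34% without it. Fzd7 had 69.7 ± 4.51 CPM on average in YFP- against 48.3 ± 4.32 CPM in YFP+ (log2 fold change -0.53, edgeR adjusted p = 1.93e-05), while Ror2 had -0.27, Ror1 -0.31 and Ptk7 0.21. With the pairing and all libraries kept, 4 fell under RLE or upper-quartile scaling, DESeq2 or limma-voom, and with mitochondrial and ribosomal RNA removed. With the pairing kept, 3 fell without replicate 1 or 4, and without replicate 3 Fzd7 alone fell and none rose. Ror1 and Ptk7 also lost their calls without replicate 2. Of 19 Wnt ligands 8 could be tested. Wnt4 rose from 15.7 ± 2.35 to 29.3 ± 6.74 CPM (log2 fold change 0.88, edgeR adjusted p = 1.31e-06), Wnt9a had -0.53 and Wnt11 -0.58, and without the pairing Wnt4 was the 1 that passed. Wnt11 lost its call without replicate 1 or 2 (edgeR adjusted p = 0.110 and 0.0892). Wnt2b, the most abundant ligand in CPM, had -0.09 and did not pass.

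Inside the cell, 4 of 20 tested genes of the beta-catenin relay and its transcription factors fell and none rose, and without the pairing none passed. They were Gsk3a (-0.39), Tcf7l1 (-0.29), Tle1 (-0.25) and Tcf7l2 (-0.20). With the pairing kept, 1 fell without replicate 3, and Tle1 also lost its call without replicate 2 or 4. Ctnnb1, which encodes beta-catenin, had -0.06 and did not pass. Of 16 genes known as feedback targets of beta-catenin, 11 could be tested, 6 fell and none rose, or 2 fell without the pairing. With the pairing kept, 3 fell without replicate 1 and 4 without replicate 3. Risen genes numbered 2 with no filter and 1 under upper-quartile scaling, under limma-voom, with mitochondrial and ribosomal RNA removed, and without replicate 2 or 4. Axin2, a widely used readout of the pathway, had 58.5 ± 6.61 CPM on average in YFP- against 47.3 ± 4.21 CPM in YFP+ (n = 4 each, ± SD), which is -0.30 on the log2 scale (edgeR adjusted p = 0.00671, or 0.113 without the pairing). Nkd2 had -1.39, Nkd1 -0.39 (lost without replicate 1 or 3) and Myc, which many other signals also raise, -0.84. Ccnd1 had 0.29 and did not pass. Znrf3 and Apcdd1 are counted in this list and in an earlier one. In the order given, the median log2 fold changes of these 6 lists were -0.21, -0.20, -0.18, -0.33, -0.05 and -0.38, against 0.01 over all genes tested.

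**Figure D4:**
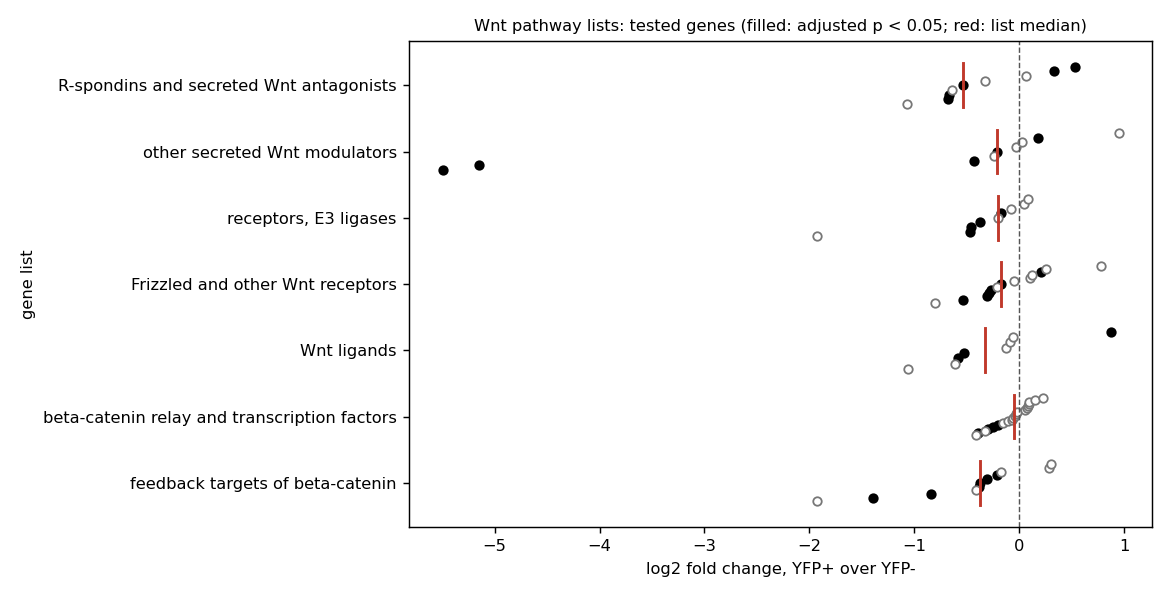
Log2 fold change of YFP+ over YFP- (horizontal axis) of every tested gene in 7 Wnt gene lists (vertical axis), filled where the edgeR adjusted p with pairing is under 0.05, with red lines at the list medians. Most filled points lie below 0, and Sfrp5 and Sostdc1 lie beyond -5.

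Markers of particular cells moved alongside these genes. Among all genes tested, 3.65% rose and 7.85% fell with the pairing, and 0.917% and 3.34% without it. In bulk RNA, fewer cells of a type and less RNA per cell cannot be told apart. Of 9 genes of CD81+ crypt-base fibroblasts, the cells known for making R-spondins and Grem1, 6 fell and 1 rose, or 4 fell and none rose without the pairing. Their summed level was 7845 to 10763 CPM in YFP- and 6268 to 7234 CPM in YFP+. Cd81 had a log2 fold change of -0.97, Grem1 -0.62 and C3, which makes up most of that sum, -0.49, beside -0.67 for Rspo3. Ptgs1 of the same list went the other way, at 0.65 (edgeR adjusted p = 1.11e-07). Estimates were negative for 7 of the 9 and positive for 2. Of 11 tested PDGFRa-high subepithelial genes 3 rose and 2 fell (2 and 1 without the pairing), with sums of 2056 to 2658 and 1816 to 2490 CPM. Pdgfra, for which the list is named, had -0.03 and did not pass. Foxl1, a further gene of the list, had 0 counts in all 8 libraries. Overlap of its exons with other genes was not checked, so the lack of counts may not mean absent RNA. Of 8 adventitial genes 5 fell and none rose, or 3 fell without the pairing, with sums of 3488 to 4023 and 3126 to 3327 CPM. The part of these fibroblasts in the results was not tested.

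The shares over all genes were 3.65% higher and 7.85% lower with the pairing, and 0.917% and 3.34% without it. Glial genes fell in 11 of 12 cases, with or without the pairing. Of these, Foxd3, Gfra3, Fabp7 and Gfap fell short of the expression filter's cutoff in some or all YFP+ libraries and were tested through YFP-, so the count is not support by itself, while 7 reached it in every YFP+ library. Their sums were 650.1 to 806 CPM in YFP- and 287 to 412 CPM in YFP+, most of it Scn7a, and Cdh19 had a log2 fold change of -4.75 beside -5.15 for Sfrp5. Of 11 tested endothelial genes 3 fell, with sums of 68.9 to 102 and 51.5 to 61.6 CPM, and without the pairing Tek (-0.76) alone fell. Tek was also the largest part of these sums (YFP- mean 46.4 CPM, YFP+ mean 27.3 CPM). The sums therefore lean on this gene and do not show a fall across the list. Estimates were positive for 4 of the 11. Endothelium is a known source of Rspo3 in other organs. Of 8 mesothelial genes 3 could be tested and 1, Krt19, fell, a keratin gene that epithelium also expresses, with sums of 3.59 to 13.9 and 1.28 to 2.01 CPM. Krt19 did not reach the filter's cutoff in every YFP+ library, so its call is not support by itself. The defining gene Msln had 0 CPM in YFP+ and averaged 0.011 CPM in YFP-, beside -0.64 for Rspo1. Epithelial genes fell in 7 of 15 cases, or 5 without the pairing, with sums of 50.3 to 104 and 22.4 to 29.1 CPM. Of those 7, Krt18, Krt19, Krt20, Cldn7 and Fabp2 fell short of the filter's cutoff in some YFP+ libraries and entered the test mainly through YFP-. That count is therefore not support by itself either, and 2 of the 7 reached the cutoff in every YFP+ library. Smooth muscle genes rose in 8 of 9, or 3 without the pairing, with sums of 293 to 584 and 502 to 1035 CPM. The part of these cells in the values of Rspo1, Rspo3 and Sfrp5 was not tested.

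In the authors' deposited table the same 5 genes, Rspo2, Rspo3, Frzb, Dkk2 and Dkk3, have an adjusted p under 0.05, with log2 fold changes of -0.523, -0.662, 0.544, -0.671 and 0.341.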

How the data were processed

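RNA-seq was run on 4 YFP+ and 4 YFP- libraries. The deposited table gives, per gene, the raw count in each library and the authors' log2 fold change and adjusted p-value, and its 8 normalized columns were not used. The submitters' processing notes name cutadapt 3.4, STAR 2.7.3a, featureCounts 2.0.1, DESeq2 and GRCm38. The strand setting is not given in the sources used.

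Counts were fitted with edgeR 4.0.16 in R 4.3.3 (TMM scaling, expression filter, robust quasi-likelihood F test, Benjamini-Hochberg over 16354 genes), blocked on the replicate number. The SE is the absolute log2 fold change divided by the square root of F. Libraries of equal number deviated together from their group means (r = 0.598, 0.637, 0.381 and 0.574 over 5258 genes), while unequal numbers gave -0.422 to 0.0534. DESeq2 1.42.0 with the number as a term matched the deposited fold changes to within 0.0005. No label says what a number shares or whether libraries are separate animals, so p-values measure only how these libraries vary, possibly for technical reasons. All 12 same-group library comparisons differed by more than sampling noise.

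The fit was tested on simulated data with several random seeds: the median estimate of planted fold changes lay close to their size, but the share of false calls was above the nominal threshold with every seed, so calls close to the threshold are less certain than their adjusted p states.

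Alternatives were other scalings (RLE, upper quartile), no filter or 1 CPM in 4 libraries, DESeq2, limma-voom (limma 3.58.1), no block, removal of mitochondrial and ribosomal RNA, and libraries left out. Exon lengths are from GENCODE M21, which held 53706 of 53801 identifiers. The genes, lists and paired design were chosen with earlier results of these data known. Named pathway genes are up to 3 called per direction by smallest p. Kremen1, Lgr5, Ctnnb1, Ccnd1, Axin2, Wnt2b, Tcf7l2, Pdgfra, Cd81, Ptgs1, Cdh19 and Foxl1 were named after their values were seen. Not every marker gene the rule took is printed. Nearest genes were sought among protein-coding genes above 0 in every library, 2 limits added to the rule. One nearest gene is not reported here.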

Additional observations from a re-analysis of the deposited data

Results flagged for a closer look

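Dixon's test was applied to 60 sets of 4 values, and 2 held a library far from its group, where chance gives about 1 in 20. One is Sfrp5, at 0.451 CPM in YFP+ replicate 4, above the rest of YFP+. The other is the ratio of Rspo2 to Frzb counts, at 1.10 in YFP+ replicate 2, also above the rest of YFP+.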

How the results depend on the processing

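Dkk2, Rspo3 and Frzb kept their direction and their call under all 20 alternatives run, and Rspo2 and Dkk3 in the 11 that keep the pairing. With no replicate block Rspo2 did not pass in any fit (edgeR adjusted p up to 0.382). Dkk3 passed with all libraries but lost its call without YFP- replicate 2, 3 or 4 or YFP+ replicate 1 or 3 (0.0736 to 0.127), so that 1 or 2 genes were higher and 2 lower. Over all genes, no replicate block gave 150 higher and 547 lower. Leaving out single libraries as well gave 88 to 156 higher (151, 156, 96 and 111 without YFP- replicates 1 to 4, and 104, 142, 88 and 139 without YFP+ replicates 1 to 4) and 339 to 521 lower (521, 464, 403 and 406, then 416, 503, 339 and 494). With the block, leaving out a replicate number gave 331 to 500 higher and 851 to 1126 lower, the lowest without replicate 3. Wif1 turned to 0.25 with no block and without YFP- replicate 2. Upk3b, a mesothelial gene at about 1 CPM, ranged from -1.27 to 0.31 with the block, the highest without replicate 2, and turned to 0.085 with no block and without YFP- replicate 2. The cause of these changes was not tested. Counts of at most 166 per library limit Rspo1, Sfrp4, Wif1 and Sfrp2.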
